A study of Mus musculus with 8 samples.

Results

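The genes described here encode the enzymes that shorten fatty acids inside mitochondria. They are Acadvl, Acadl, Acadm, Acads, Hadha, Hadhb, Hadh, Echs1, Acaa2 and Decr1, 10 of the 24033 genes in the deposited table, found by their exact symbols and not by their values. Their RNA was measured by sequencing in soleus muscle, a slow, oxidative hindlimb muscle, from mice aged 2 months. The 4 control samples, labelled MyoCre, had the genotype Myogenin-Cre/+, which is 1 allele of a Cre recombinase under the control of myogenin. The 4 K15-SKO samples had the genotype Myogenin-Cre/+;K15F/F, the same Cre allele with both alleles of Klf15 floxed, so both genotypes carried Cre and no group without Cre was analysed here. Myogenin is active in differentiating muscle cells, and cells of the muscle that never expressed it keep their Klf15. The values are FPKM (fragments scaled to the length of the transcript and to the number of fragments mapped), a unit inferred from the tools named in the submitters' processing notes. Being per length, they allow a rough comparison between genes, but levels also shifted with the GC content of the transcript in some libraries, as given below. Where a gene is lower in whole muscle, fewer cells of a type and less RNA per cell cannot be told apart. The labels do not say whether the samples of a genotype came from separate litters or days, so p-values measure only the spread between these samples.

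Mitochondrial beta-oxidation is a spiral of repeated steps. An acyl-CoA dehydrogenase places a double bond beside the thioester, an enoyl-CoA hydratase adds water to it, a hydroxyacyl-CoA dehydrogenase oxidises the alcohol, and a thiolase cuts off acetyl-CoA, leaving a shorter chain that enters again. Enzymes with different chain-length preferences share the work: ACADVL and the trifunctional protein (the HADHA and HADHB subunits) sit at the inner membrane and act on long chains, ACADL acts on long chains, ACADM on medium chains and ACADS on short ones, while ECHS1, HADH and ACAA2 take the medium and short products in the matrix. DECR1 reduces the double bonds of unsaturated chains so that they can enter the spiral. Slow muscle draws much of its energy from this pathway, and KLF15 is a Kruppel-like zinc finger factor known to regulate lipid and amino acid use in muscle. Kruppel-like factors bind GC-rich and CACCC-type DNA.

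The starts of 3 of these genes show the sequence at which the values begin. Regions of 300 bases ran from 250 before to 50 after the start. They were taken from RefSeq (GRCm38.p6, the mm10 build) for 8 of the 10 genes. Echs1 is shown because it had the lowest K15-SKO level relative to control, Acadl because it was the other gene whose libraries did not overlap between the genotypes, and Hadhb because its start region is shared with Hadha. Capitals mark CACCC on either strand (GGGTG on the printed strand). The Echs1 region is chr7:140116372-140116671 on the minus strand, the Acadl region chr1:66863260-66863559 on the minus strand, and the Hadhb region chr5:30155003-30155302 on the plus strand.
Echs1: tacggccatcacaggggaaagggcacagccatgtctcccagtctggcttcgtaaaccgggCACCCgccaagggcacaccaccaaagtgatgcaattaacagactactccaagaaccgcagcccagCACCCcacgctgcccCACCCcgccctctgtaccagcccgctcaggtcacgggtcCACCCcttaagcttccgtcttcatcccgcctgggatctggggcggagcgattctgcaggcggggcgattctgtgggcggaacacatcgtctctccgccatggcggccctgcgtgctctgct
Acadl: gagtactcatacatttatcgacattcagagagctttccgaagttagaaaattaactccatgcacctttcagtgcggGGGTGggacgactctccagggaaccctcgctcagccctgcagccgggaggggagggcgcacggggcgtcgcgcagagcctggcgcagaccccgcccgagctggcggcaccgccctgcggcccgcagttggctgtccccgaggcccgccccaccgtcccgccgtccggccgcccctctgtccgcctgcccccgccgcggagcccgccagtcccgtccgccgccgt
Hadhb: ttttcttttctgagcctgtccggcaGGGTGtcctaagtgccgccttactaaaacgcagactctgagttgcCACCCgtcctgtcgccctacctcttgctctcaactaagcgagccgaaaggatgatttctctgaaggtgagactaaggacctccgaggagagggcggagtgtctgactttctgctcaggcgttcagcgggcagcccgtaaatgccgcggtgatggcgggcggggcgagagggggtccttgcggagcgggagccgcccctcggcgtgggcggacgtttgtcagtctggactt

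All 8 of these regions held CACCC on at least 1 strand, against 57.5% of 32817 such regions of the genome. The regions of Acaa2 and Decr1 were not analysed, so the motif counts do not cover these genes. Echs1 held 4 matches, Hadh 3, Hadha and Hadhb 2 each, and Acadvl, Acadl, Acadm and Acads 1 each. A relation of these counts to the fold changes was not tested. The GC box GGGCGG was in 6 of the 8 (35.6% of all regions), and CCAAT in 1 of the 8, Hadh (37.4% of all). The nuclear receptor half-site AGGTCA was in Acadvl, Acadm and Echs1 (16.3% of all regions). The longer TCAAGGTCA, which contains AGGTCA, was in none of the 8 and in 0.424% of all regions. Each motif was searched on both strands, and a match is a run of letters, not a bound site. Hadha (minus strand) and Hadhb (plus strand) lie head to head, with 85 bases between their starts in GENCODE M21. Of their 300-base RefSeq regions 228 bases are the same DNA, which the motif counts include for both genes, and these annotations do not place the starts alike. The shares over all regions were not matched for GC content.

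The libraries need a short account before the values. Klf15 itself had 44.5, 49.8, 49.1 and 22.8 FPKM in MyoCre replicates 1 to 4 and 15.7, 19.3, 16.7 and 13.1 FPKM in K15-SKO replicates 1 to 4, so it was lower in every K15-SKO library and not absent (log2 fold change -1.28, limma adjusted p = 0.0315). The muscle fibre markers Mb and Myh7 were high in all 8 libraries, with lowest values of 3955.5 and 669 FPKM. K15-SKO replicate 3 stood apart: the small nuclear RNA Rn7sk made up 14.1% of its FPKM sum against 8.67% to 10.5% in the others, and its median-of-ratios factor, the typical level of its genes relative to all libraries, was 0.796 against 0.961 to 1.15. MyoCre replicate 2 had 23.03 FPKM of the Y-linked Ddx3y, at 0 in the other 7, and 0.0103 FPKM of Xist, at 20.998 or more in the others; the labels give no sex. Depth is not given with FPKM, and an estimate from the lowest values gave 8300000 to 22540000 fragments per library, which puts at least 353 fragments behind each value of the 10 genes. Counting error is therefore small beside the spread between samples.

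All 10 genes had a lower mean in K15-SKO muscle, and none of the 10 passed the threshold of an adjusted p under 0.05 in limma, a linear model fitted here to log2(FPKM + 0.5) for all 12535 genes that averaged 1 FPKM or more. All 10 passed that filter on low values. Over all genes tested, 23 (0.183%) were called lower and 46 (0.367%) higher, the latter all in genes listed at 0 in every MyoCre library. With the genes at 0 in a genotype left out, 12 were called lower and 0 higher. Whether the single genes named in this text as called, Klf15 included, are among these 12 is not reported here. The direction was common, since 77.0% of all genes tested had a negative log2 fold change, with a median of -0.12. Against that median 9 of the 10 genes were lower, and the median of the 10 was -0.33, or -0.20 relative to all genes. At an unadjusted limma p under 0.05, 2 of the 10 (Echs1 and Acaa2) were lower, against 430 (3.43%) of all genes tested. In Echs1 and Acadl the groups did not overlap, the highest K15-SKO value being under the lowest MyoCre value, which was so for 341 (2.72%) of all genes tested; 79 (0.63%) lay wholly above. Leaving out a library cannot make separate groups overlap. Echs1 and Acadl therefore stayed apart in each such case, and the count could only stay or rise. Without K15-SKO replicate 3 the count stayed at 2 of the 10, against 3.4% of all genes. The count rose to 5 of the 10 without MyoCre replicate 4 (6.51% of all genes) and to 5 without K15-SKO replicate 2 (6.32%), and Acadl overlapped under median-of-ratios scaling and after a correction for GC content, while Echs1 did not. By the adjusted p, 0 of the 10 genes passed with any single library left out.

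**Figure D1:**
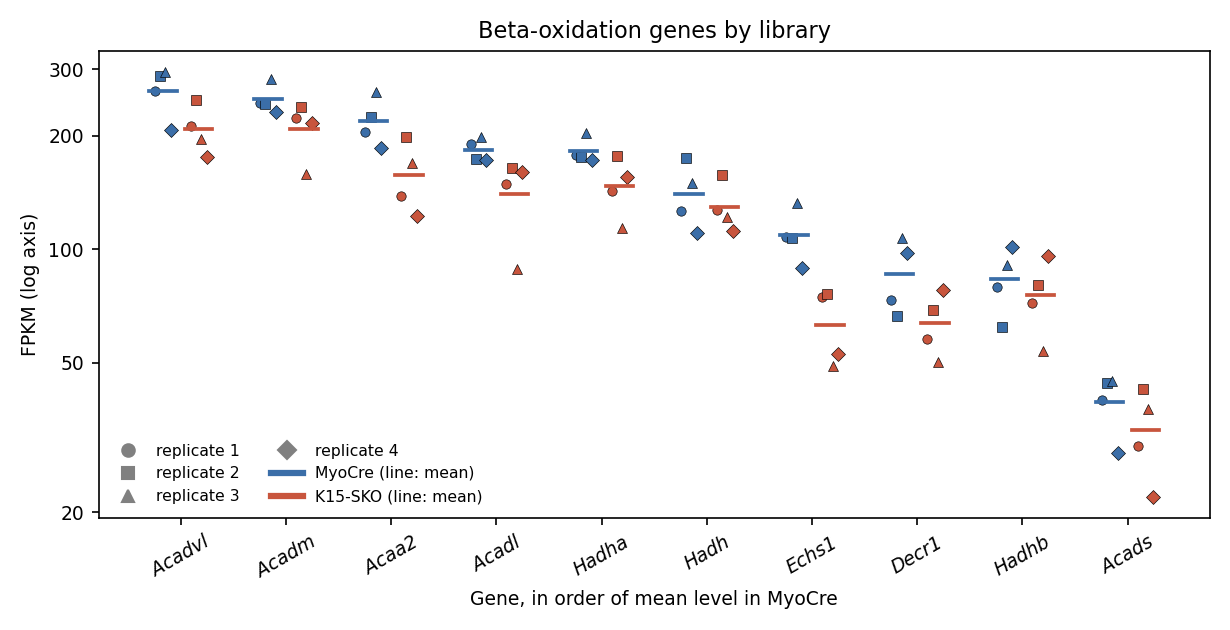
FPKM on a log axis for the 10 genes in each library, with MyoCre in blue, K15-SKO in red, symbols for replicates 1 to 4 and lines at the means of 4 libraries. Echs1 and Acadl are the genes whose red points all lie below the blue ones, and Acads is the lowest gene in both genotypes.

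In MyoCre muscle Acadvl was highest, at 263 ± 39.9 FPKM (SD, n = 4), followed by Acadm (250.02 ± 22.02), Acaa2 (219 ± 32.4), Acadl (184 ± 12.8), Hadha (182 ± 14.3), Hadh (140.2 ± 28.2), Echs1 (109.1 ± 17.9), Decr1 (86.01 ± 19.2), Hadhb (83.4 ± 16.8) and Acads (39.3 ± 7.30). Neighbours in this order had overlapping libraries, with the exception of Acads, which lay below every other gene in every library of both genotypes. In the order of K15-SKO means 3 pairs of genes were exchanged: Acadm (209 FPKM) stood level with and just before Acadvl (208 FPKM), Hadha stood before Acadl, and Hadhb took the 7th place with Echs1 in the 9th.

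Acadvl encodes the membrane-bound dehydrogenase that starts the spiral on the longest chains. It had 263, 288, 295 and 207 FPKM in MyoCre replicates 1 to 4 and 213, 248, 196 and 175 FPKM in K15-SKO replicates 1 to 4. MyoCre replicate 4 was low, below 2 of the K15-SKO libraries, so the groups overlapped. In the fit over all genes the log2 fold change was -0.34 (SE 0.18, adjusted p = 0.957).

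Acadl encodes the matrix dehydrogenase for long chains, which in rodents has a larger part in fat oxidation than in humans. The MyoCre values were close together at 191, 173, 198 and 173 FPKM, and the K15-SKO values were 149, 164, 88.4 and 159.95 FPKM. The K15-SKO group held 1 low library, replicate 3, and the other 3 lay between it and the lowest control. Acadl had a fitted log2 fold change of -0.43 (SE 0.21, adjusted p = 0.957), and it was -0.22 without K15-SKO replicate 3.

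Acadm, the medium-chain dehydrogenase whose loss in humans is a common inherited defect of fat oxidation, was among the most even of the genes. It had 244, 243, 282 and 231 FPKM in MyoCre, against 223, 238, 159 and 216 FPKM in K15-SKO muscle. Of the K15-SKO libraries 3 lay below the lowest control and replicate 2 did not. For Acadm the log2 fold change was -0.27 (SE 0.18, adjusted p = 0.957), and it was -0.15 without K15-SKO replicate 3.

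Acads, for the shortest chains, had 39.7, 44.1, 44.5 and 28.8 FPKM in MyoCre, against 30.1, 42.5, 37.7 and 21.99 FPKM in K15-SKO muscle. Replicate 4 was the lowest library in both genotypes, and only K15-SKO replicate 4 lay under the control range. Its log2 fold change was -0.27 (SE 0.23, adjusted p = 0.957). It was -0.09 without K15-SKO replicate 4 and -0.41 without MyoCre replicate 4.

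Echs1 encodes the matrix hydratase for short and medium enoyl-CoA, which also hydrates intermediates of valine and isoleucine breakdown. Its MyoCre libraries held 108, 107, 132 and 88.9 FPKM, and its K15-SKO libraries 74.5, 76.1, 48.8 and 52.5 FPKM. The highest K15-SKO library was below the lowest control, and the K15-SKO mean was 57.7% of the MyoCre mean. The log2 fold change was -0.80 (SE 0.20), or -0.68 relative to all genes, with an unadjusted limma p of 0.00162 and an adjusted p of 0.207. It ranked 98th of the 12535 genes by p, and 1.55% of the genes had a lower log2 fold change. Over 22 alternative fits the log2 fold change ran from -0.90 to -0.62 and the adjusted p from 0.00247 to 0.857. It passed in 2 of them, with library weights (adjusted p = 0.0452) and with a correction for GC content together with the replicate number, an alternative added after the values were seen. The gene lies on chromosome 7 from 140105710 to 140116476 on the minus strand and has 8 exons in its principal transcript. Its exons overlap those of Paox on the other strand by 142 bases, and Paox averaged 1.15 FPKM.

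Hadha and Hadhb encode the alpha and beta subunits of the trifunctional protein. HADHA hydrates long-chain enoyl-CoA and oxidises the hydroxyacyl product, and HADHB is the long-chain thiolase. Hadha had 178, 176, 203 and 172 FPKM in MyoCre, against 143, 177, 114 and 156 FPKM in K15-SKO muscle, a log2 fold change of -0.32 (SE 0.18, adjusted p = 0.957) that was -0.20 without K15-SKO replicate 3. K15-SKO replicate 2 lay within the control range and the other 3 below it. Hadhb had 79.3, 62.3, 90.6 and 101.6 FPKM in MyoCre, against 72.1, 80.4, 53.7 and 96.1 FPKM in K15-SKO muscle, and these groups overlapped widely. Its log2 fold change was -0.15 (SE 0.22, adjusted p = 0.957), near the median of all genes. It was 0.0027 without K15-SKO replicate 3, -0.05 without MyoCre replicate 4, and -0.28 without either MyoCre replicate 2 or K15-SKO replicate 4. The genes lie on chromosome 5, Hadha from 30118304 to 30155162 and Hadhb from 30155248 to 30184593.

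Hadha read higher than Hadhb in every library. The ratio of Hadha to Hadhb was 2.25 ± 0.461 in MyoCre and 1.98 ± 0.257 in K15-SKO muscle (SD, n = 4 each), with 2.24, 2.82, 2.24 and 1.69 in MyoCre replicates 1 to 4. Over the 8 libraries their log2 levels had a Pearson r of 0.622 (exact permutation p = 0.0982, adjusted over 45 pairs of the genes 0.192) and a Spearman rho of 0.333 (exact permutation p = 0.428, adjusted 0.507). Without the 2 libraries farthest from the median of Hadha, r was -0.141, so its value depends on those libraries, though leaving them out also narrows the range of Hadha. Within a genotype r was 0.191 in MyoCre and 0.831 in K15-SKO libraries. Over the 45 pairs r ran from -0.446 to 0.965, with 39 above 0 and a median of 0.622, the value of Hadha with Hadhb. These values pool both genotypes and were not rescaled between libraries, whose median-of-ratios factors ran from 0.796 to 1.15. The part of that scale in the correlations was not tested, and r over pairs of all genes was not computed. The highest of the 45 was that of Acadm with Hadha, on different chromosomes, with r = 0.965 (exact permutation p = 0.00067, adjusted 0.00809), rho = 0.952 (exact permutation p = 0.00114, adjusted 0.0128) and r = 0.835 without the 2 farthest libraries of Acadm. Taken as deviations from the genotype means, r was 0.946 for Acadm with Hadha and 0.629 for Hadha with Hadhb.

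Hadh encodes the hydroxyacyl-CoA dehydrogenase for medium and short chains and differed least between the genotypes. It had 126, 175, 149.9 and 110.2 FPKM in MyoCre, against 127, 157, 121 and 112 FPKM in K15-SKO muscle, so every K15-SKO library lay within the control range. The log2 fold change was -0.10 (SE 0.19, adjusted p = 0.957), which is 0.02 above the median of all genes, and it turned to 0.03 under median-of-ratios and upper-quartile scaling. With 1 library left out it ran from -0.21 (without MyoCre replicate 4) to 0.0087 (without MyoCre replicate 2), with -0.20 without K15-SKO replicate 2, -0.04 without K15-SKO replicate 4 and -0.06 without MyoCre replicate 3.

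Decr1, the dienoyl-CoA reductase for unsaturated chains, had 73.3, 66.4, 106.9 and 97.4 FPKM in MyoCre, against 57.7, 69.1, 50.2 and 77.9 FPKM in K15-SKO muscle. The groups overlapped, with 2 K15-SKO libraries below the lowest control. Its fitted log2 fold change was -0.42 (SE 0.21, adjusted p = 0.957).

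Acaa2 encodes the matrix thiolase for medium and short chains and had the second most negative fold change of the 10. Its MyoCre libraries held 205, 224, 261 and 185 FPKM, and its K15-SKO libraries 139, 199, 169 and 122 FPKM. K15-SKO replicate 2 lay within the control range and the other 3 below it, with a K15-SKO mean 71.8% of the MyoCre mean. In limma its log2 fold change was -0.49 (SE 0.20, adjusted p = 0.937).

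**Figure D2:**
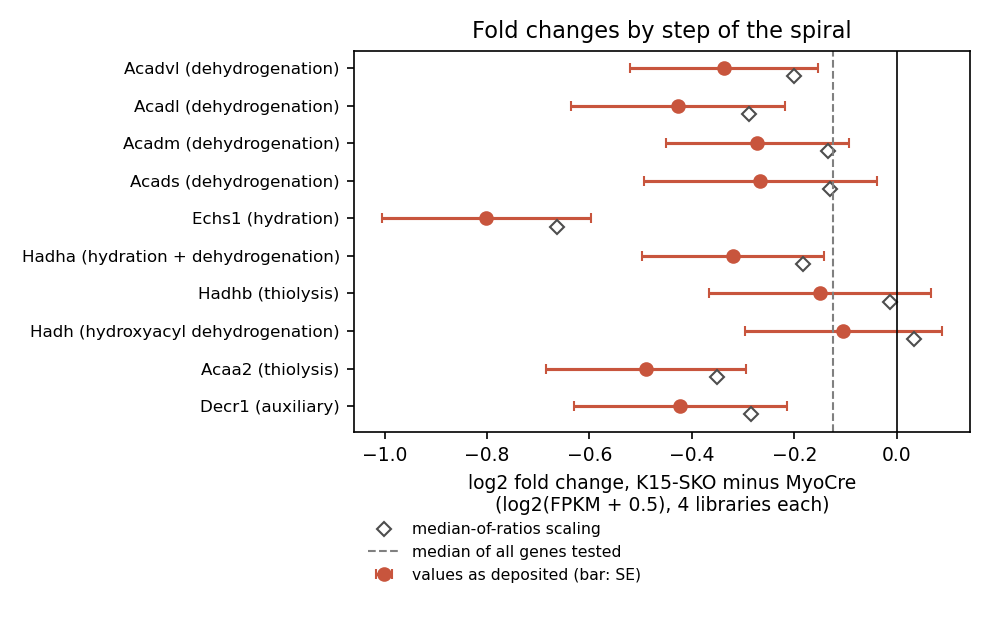
Log2 fold changes of the 10 genes ordered by step, as circles with their SE for the values as deposited and as diamonds under median-of-ratios scaling, with a dashed line at the median of all genes tested. Echs1 lies at -0.80, the other 9 circles lie between -0.49 and -0.10, and the diamond of Hadh lies above 0.

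By step, the 4 acyl-CoA dehydrogenases had log2 fold changes between -0.43 and -0.27, with a median of -0.31. Among the thiolases Acaa2 had -0.49 and Hadhb -0.15, and among the hydratases Echs1 had -0.80 and Hadha -0.32. By chain length, the 4 genes for long chains had a median of -0.33 (range -0.43 to -0.15) and the 5 for medium and short chains a median of -0.27 (range -0.80 to -0.10). The second group therefore held both the lowest fold change, of Echs1, and the one nearest to 0, of Hadh.

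Ratios of pairs of these genes within a library do not depend on how the libraries were scaled, and 9 were compared between the genotypes by two-sided exact permutation tests (n = 4 each), which cannot give a p below 0.0286. None passed after adjustment over the 9, and a single ratio at the smallest possible p would reach only 0.257. On the values as deposited, the ratio of the short-chain to the long-chain hydratase, Echs1 to Hadha, came closest. It was 0.607, 0.61, 0.652 and 0.517 in MyoCre and 0.522, 0.431, 0.428 and 0.338 in K15-SKO muscle, so only MyoCre replicate 4 and K15-SKO replicate 1 overlapped. Its log2 difference was -0.48 (exact permutation p = 0.0571, adjusted 0.514), and Echs1 had been known as the lowest of the genes when the ratio was chosen. Along the dehydrogenases, Acads to Acadvl was 0.149 ± 0.00636 in MyoCre and 0.158 ± 0.0299 in K15-SKO muscle (exact permutation p = 0.629, adjusted 0.836). Acadm to Acadvl was 0.96 ± 0.114 and 1.01 ± 0.176 (exact permutation p = 0.714, adjusted 0.836). The remaining ratios, Acadl to Acadvl, Acads to Acadm, Hadh to Hadha, Acaa2 to Hadhb, Decr1 to Acadm and Hadha to Hadhb, had exact permutation p-values of 0.257 to 1, and adjusted ones of at least 0.771. With 4 samples a genotype and 9 ratios, 1 shifted ratio could not pass however large its shift. These tests therefore cannot decide whether the chain-length balance changed.

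**Figure D3:**
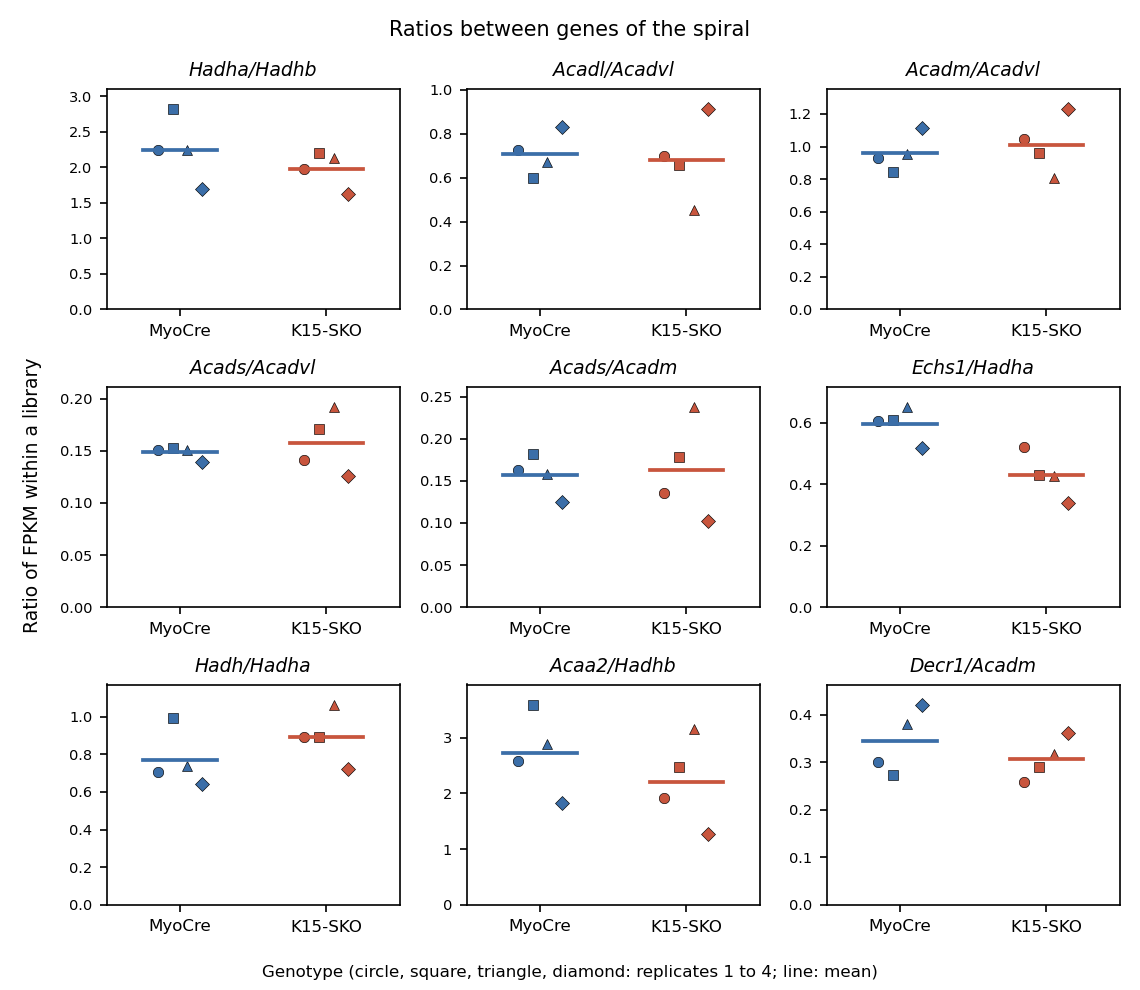
Each panel plots the ratio of FPKM of a pair of genes in each library, on an axis from 0, for MyoCre in blue and K15-SKO in red, with symbols for the replicates and lines at the means. The ratio of Echs1 to Hadha overlaps in 1 library of each genotype, and the other 8 ratios also overlap.

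Within a genotype most of the genes shared their highest library, and in K15-SKO muscle they differed in their lowest. MyoCre replicate 3 was highest for 8 of the 10 genes among the controls, and K15-SKO replicate 2 for 8 of the 10 among the K15-SKO libraries. These libraries also had the highest median-of-ratios factor over all genes in their genotype, 1.15 and 1.06. The part of that factor in this order was not tested. In MyoCre muscle replicate 4 was the lowest library for 8 of the 10 genes and the highest for Hadhb. In K15-SKO muscle replicate 3 was lowest for Acadl, Acadm, Hadha, Echs1, Hadhb and Decr1, and replicate 4 was lowest for Acadvl, Acads, Hadh and Acaa2 but highest for Hadhb and Decr1. The deviations of the libraries were compared with the GC content of the transcripts (44.4% in Decr1, 45.1% in Acadl, 45.4% in Hadhb, 53.7% in Acadvl, 60.1% in Acads). In K15-SKO replicate 3 Acadl deviated from its genotype mean by -0.62 on the log2 scale and Acads by 0.23. In K15-SKO replicate 4 the signs were the other way, 0.23 for Acadl and -0.54 for Acads.

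Across the 10 genes the deviation had a Pearson r with GC content of 0.376, 0.716, 0.00832 and -0.809 in MyoCre replicates 1 to 4 and of -0.198, 0.841, 0.854 and -0.916 in K15-SKO replicates 1 to 4. Genes rich in GC were thus relatively high in replicate 2 of both genotypes and in K15-SKO replicate 3, and relatively low in replicate 4 of both. These correlations are across genes of 1 library and are given as a description. All genes tested moved likewise: per 10 percentage points of GC the log2 value changed by 0.39 in K15-SKO replicate 3, by -0.31 in K15-SKO replicate 4 and by -0.33 in MyoCre replicate 4, and by -0.02 to 0.16 in the other 5 libraries. With each library corrected for GC content, an alternative added after this was seen, the log2 fold change of Echs1 was -0.81 (adjusted p = 0.0972), that of Acaa2 -0.52 (adjusted p = 0.453) and that of Acads -0.37 (adjusted p = 0.801). Acaa2 then no longer overlapped between the genotypes and Acadl did. Ratios of genes unlike in GC also differed by library, with Acads to Acadm at 0.238 in K15-SKO replicate 3 and 0.102 in K15-SKO replicate 4. After the correction the log2 difference of Acadm to Acadvl was 0.12 (exact permutation p = 0.0571, adjusted 0.257). That of Hadha to Hadhb was -0.22 (exact permutation p = 0.0857, adjusted 0.257) and that of Echs1 to Hadha -0.47 (exact permutation p = 0.0571, adjusted 0.257).

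**Figure D4:**
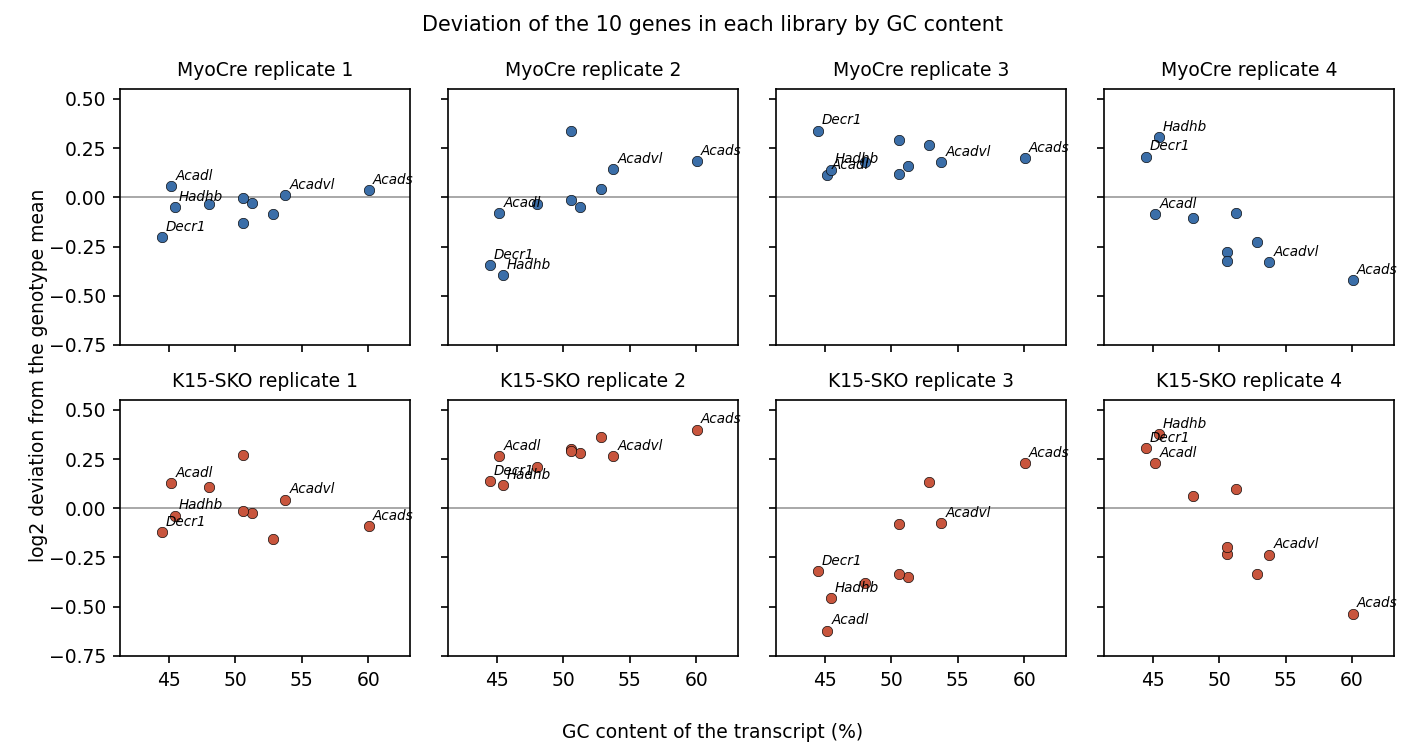
Each panel is 1 library and plots the log2 deviation of the 10 genes from the mean of their genotype against the GC content of the transcript in percent. Points run upward in replicate 2 of both genotypes (r = 0.716 in MyoCre, 0.841 in K15-SKO) and in K15-SKO replicate 3 (r = 0.854), and downward in replicate 4 of both (r = -0.809 and -0.916).

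The genes around the spiral were compared as lists, each by its own counts. Carnitine shuttle and acyl-CoA entry genes had 0 of 11 members called, with a median log2 fold change of -0.23. Acsl1, which activates long-chain fatty acids, had 245 ± 38.1 FPKM in MyoCre, against 188 ± 26.3 FPKM in K15-SKO muscle, and Slc25a20, the carrier that brings acylcarnitines across the inner membrane, 77.2 ± 8.12 and 60.3 ± 8.41 FPKM (adjusted p = 0.957 each). The 3 genes that pass electrons from the acyl-CoA dehydrogenases to the respiratory chain, Etfa, Etfb and Etfdh, had a median of -0.51, below that of the spiral, and 0 of 3 were called. Etfa had 131 ± 16.2 and 93.6 ± 21.8 FPKM with no overlap (adjusted p = 0.940), and Etfb 196 ± 47.5 and 132 ± 36.4 FPKM (adjusted p = 0.957).

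Of 8 other acyl-CoA dehydrogenases (median -0.43) 1 was called lower, Ivd, of leucine breakdown. Ivd had 61.4 ± 10.4 FPKM in MyoCre libraries, 32.2 ± 3.04 FPKM in K15-SKO ones and no overlap (adjusted p = 0.0339 in limma, log2 fold change -0.91). Without the genes listed at 0 in a genotype, 12 genes and not 23 were called lower. Whether Ivd was among these 12 is not reported here. Gcdh, of lysine breakdown, had 22.3 ± 3.78 and 11.5 ± 2.13 FPKM with no overlap and missed the threshold (log2 fold change -0.93, SE 0.19, adjusted p = 0.0595). Acad8, of valine breakdown, had a log2 fold change of -0.11, near the median of all genes, and Acadsb, of isoleucine breakdown, one of -0.72 (adjusted p = 0.957 and 0.695). The difference between Ivd and the spiral's own dehydrogenases was not tested. Of the auxiliary and related mitochondrial enzymes 8 of 9 had values in both genotypes, with 0 called and a median of -0.26. Among them Hsd17b10, a dehydrogenase of isoleucine breakdown, had 47.9 ± 7.05 and 30.7 ± 6.82 FPKM with no overlap (adjusted p = 0.582). Acsf3, a malonyl-CoA synthetase, is listed at 0 in every MyoCre library and had 4.88, 5.45, 5.39 and 3.66 FPKM in K15-SKO muscle.

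Peroxisomes run a shorter form of the same spiral, and of 14 tested genes of that pathway 1 was called lower (median -0.24). Ehhadh, the peroxisomal enzyme that joins the hydratase and dehydrogenase steps, had 6.43, 3.14, 7.02 and 6.93 FPKM in MyoCre, against 2.03, 3.07, 1.90 and 2.16 FPKM in K15-SKO muscle. The groups did not overlap, and it missed the threshold (log2 fold change -1.15, SE 0.24, adjusted p = 0.0613). Of 15 regulators of fatty acid oxidation Klf15 alone was called, and the other 14 had a median of -0.16, with the fatty acid receptor gene Ppara at 25.04 ± 5.79 and 19.01 ± 4.59 FPKM (adjusted p = 0.957) and the coactivator subunit Med1 at 9.99 ± 0.608 and 8.26 ± 1.91 FPKM (adjusted p = 0.957).

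General mitochondrial genes were read beside the spiral. The tricarboxylic acid cycle had 0 of 18 called and a median of -0.15, close to that of all genes. Sdhb, a succinate dehydrogenase subunit, had 430 ± 79.2 and 308 ± 48.9 FPKM and Cs, citrate synthase, 327 ± 29.1 and 279 ± 22.7 FPKM (adjusted p = 0.957 each). The groups did not overlap in Cs. Channels, import and chaperone genes, listed as mitochondrial mass, had 0 of 19 called and a median of -0.23. The chaperonin Hspe1 had 53.5 ± 4.64 and 33.99 ± 9.04 FPKM with no overlap (adjusted p = 0.554), and Hspd1 61.8 ± 4.28 and 47.5 ± 14.4 FPKM (adjusted p = 0.957). The spiral's median of -0.33 was thus lower than both, and this difference was not tested.

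**Figure D5:**
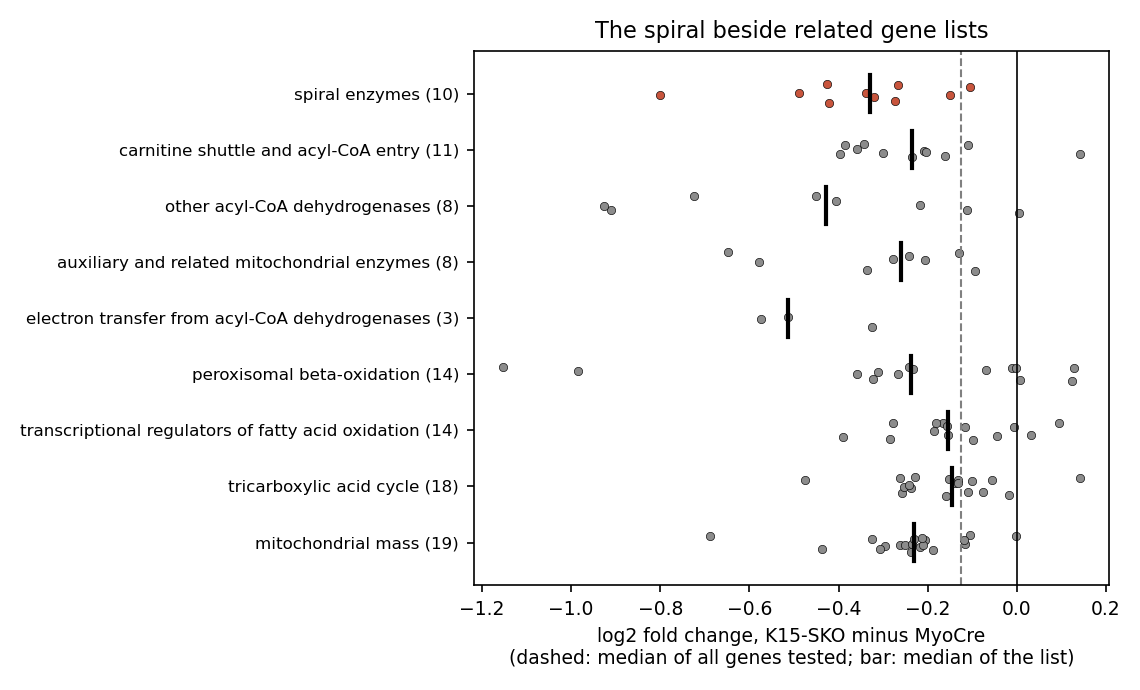
Log2 fold changes of single genes (points) and list medians (bars) for the spiral in red and 8 related lists in grey, with a dashed line at the median of all genes tested; Klf15 and Acsf3 are not drawn. The spiral's points lie at or below -0.10, with Echs1 apart from the rest at -0.80.

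Other cells of the muscle also use fatty acids, so their markers were read beside these values. Of 8 fat cell markers 7 were tested and 0 called (median -0.24), and their summed level was 262 to 349.9 FPKM in MyoCre, against 256 to 504 FPKM in K15-SKO libraries, most of it Fabp4. The defining fat cell gene Adipoq had 3.18 to 7.14 FPKM in MyoCre, against 1.60 to 6.01 FPKM in K15-SKO muscle. Ucp1, the defining brown fat gene, was listed at 0 in 7 of 8 libraries and had 0.0621 FPKM in the other, while Cox7a1, high in brown fat and also in slow muscle, led the brown fat list at a mean of 1161 FPKM. Fibroblast markers (0 of 7 called, median -0.38) and macrophage markers (0 of 7 called, median -0.40) had negative medians, endothelial and mural markers a positive one (0 of 8 called, 0.12). Erythroid markers had a median of 0.80 with 0 of 5 called, and 1 library, K15-SKO replicate 3, held the high values: Hbb-bs, a beta-globin gene, had 1265 FPKM there, 215, 365 and 227 FPKM in K15-SKO replicates 1, 2 and 4 and 189 to 290.1 FPKM in MyoCre. Tendon markers had a median of -0.46 with 0 of 6 called, Schwann cell markers one of -0.20 with 0 of 4 called, and muscle fibre markers one of -0.10 with 0 of 10 called. Their part in the values of the 10 genes was not tested.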

How the data were processed

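RNA of 8 soleus samples, 4 MyoCre and 4 K15-SKO, was isolated with a Roche HighPure kit and made into libraries by Illumina methods, per the labels' protocols. Per the submitters' processing notes STAR, Cufflinks, Cuffdiff and mm10 were used; the sources used here give no version, annotation, strand setting, filter or scaling. The deposited values were read here as FPKM, a unit inferred from these tools and not stated in the file. Without a strand setting, overlapping genes on opposite strands cannot be told apart (Dvl2 shares 1151 exon bases with Acadvl, at 1.81 FPKM). Columns were matched to samples by their description, and 0 other value columns were present.

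All 12535 genes averaging 1 FPKM or more were fitted as log2(FPKM + 0.5) in limma 3.58.1 (R 4.3.3), with trend and robust variance, genotype alone, two-sided, and p-values adjusted by Benjamini-Hochberg over all genes; the script was tested on simulated data. Log2 fold changes are K15-SKO minus MyoCre and errors are moderated SE. Ratios and correlations used exact permutation (scipy 1.17.1). GC content and exons came from GENCODE M21, where 23896 of 24033 gene IDs matched. Depth was estimated from the lowest FPKM times length of single-transcript genes over 1 kb. The genes and lists were chosen with earlier results of these data known. Besides the 10 genes and Klf15, the text names the 2 genes of each related list with the smallest p and any called, the most abundant markers, and the 5 genes most like the mean pattern; defining markers, Acsf3, Acad8, Acadsb, Etfdh and Dvl2 were added with their values known. For 1 further gene under this rule no value is reported here. Alternatives were other pseudocounts (1 and 0.1), filters (none, or a mean of 5), scalings, variance settings, weights, the genes tested, the replicate number and each library left out. The GC correction (loess on transcript GC, span 0.5), its fit with the replicate number, and median-of-ratios scaling without the genes at 0 were added after seeing the data.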

Additional observations from a re-analysis of the deposited data

Results flagged for a closer look

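In 40 groups of 4 values (the 10 genes, Klf15 and the 9 ratios in each genotype), the gap between the most extreme library and its neighbour was compared with the range of the group. It exceeded Dixon's 95% critical value once, where chance gives about 2. The ratio of Acads to Acadvl was 0.139 in MyoCre replicate 4 and 0.151, 0.153 and 0.151 in MyoCre replicates 1, 2 and 3, a gap of 0.861 of the range. MyoCre replicate 4 was also the MyoCre library whose values fell most with GC content, by 0.33 on the log2 scale per 10 percentage points, and Acads has the highest GC content of the 10 genes; the part of this in the low ratio was not tested.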

How the results depend on the processing

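The 10 fold changes were recomputed in 22 alternative fits, and 213 of the 220 values kept their direction and their side of the threshold. Hadh turned to 0.034 under median-of-ratios scaling (with and without the genes at 0 in a genotype), to 0.028 under upper-quartile scaling and to 0.0087 without MyoCre replicate 2, and Hadhb to 0.0027 without K15-SKO replicate 3. With 1 library left out Hadh ran from -0.212 to 0.0087 and Hadhb from -0.282 to 0.0027. Echs1 passed with library weights (log2 fold change -0.62, adjusted p = 0.0452) and with the GC correction and the replicate block together (-0.81, adjusted p = 0.00247), so that 1 of the 10 genes was called in these and 0 in the others. The median of the 10 relative to all genes stayed between -0.28 and -0.18. Groups that did not overlap numbered 2 to 5 of the 10 with 1 library left out, a step that can only keep or raise the count. They were 5 without MyoCre replicate 4 (Acadvl, Acadl, Acadm, Echs1 and Acaa2, against 6.51% of all genes) and 5 without K15-SKO replicate 2 (Acadl, Acadm, Hadha, Echs1 and Acaa2, against 6.32%). Under median-of-ratios scaling they were Acadm and Echs1.

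The count of all genes called lower, 23, became 15 with median-of-ratios scaling, 14 with upper-quartile scaling, 14 with quantile normalization, 15 without robust estimation, 101 with library weights, 12 without the genes at 0 in a genotype, 3 with median-of-ratios scaling added to that, 45 with the GC correction, 170 with the GC correction and the replicate block, and 7 to 27 with 1 library left out (7 without MyoCre replicate 3, and 13 when either MyoCre replicate 1 or K15-SKO replicate 1 was the one omitted). The cause was not tested. Replicate numbers were shared between the genotypes, but same-numbered libraries did not all deviate together (correlations over genes of 0.148, 0.343, 0.00701 and 0.335; 3 of 4 MyoCre libraries correlated best with their own number), so the numbers were not taken as pairs. With the replicate block 32 genes were called lower and 0 of the 10 genes, with Echs1 at adjusted p = 0.157.

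No ratio passed under any of 13 alternatives; with the replicate block an exact test cannot give a p below 0.125, and with 1 library left out none below 0.0571. Of 117 recomputed log2 ratio differences 7 changed sign. Acads to Acadm became -0.098 without MyoCre replicate 4, -0.058 without K15-SKO replicate 2, -0.197 without K15-SKO replicate 3 and -0.113 with the GC correction, Acadl to Acadvl 0.094 and Acads to Acadvl -0.0295 without K15-SKO replicate 3, and Acadm to Acadvl -0.034 without K15-SKO replicate 4. With 1 library left out these differences ran from -0.197 to 0.2051 for Acads to Acadm, -0.2445 to 0.094 for Acadl to Acadvl, -0.0295 to 0.1713 for Acads to Acadvl and -0.034 to 0.1674 for Acadm to Acadvl. Depth, known only as an estimate, limits these abundant genes less than the number of samples.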

Other observations

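Outside the pathway, the 5 tested genes whose log2 values were most like the mean standardised pattern of the 10 genes over the 8 libraries were Pgam5 (Pearson r = 0.990), Ephx2 (0.981), Rrp8 (0.980), Swi5 (0.979) and Eef1g (0.979). They were chosen from 12525 genes for this likeness, so the values are a description, and all genes share the depth and the GC trend of the libraries. Pgam5, a phosphatase of mitochondria, had 17.7, 18.04, 20.7 and 16.7 FPKM in MyoCre, against 14.6, 17.4, 13.1 and 15.3 FPKM in K15-SKO muscle. Ephx2, the soluble epoxide hydrolase, had 31.7, 30.4, 44.3 and 29.97 FPKM in MyoCre, against 21.2, 30.6, 17.3 and 19.1 FPKM in K15-SKO muscle (log2 fold change -0.63, adjusted p = 0.695). In both genes MyoCre replicate 3 was the highest library and K15-SKO replicate 3 the lowest, and K15-SKO replicate 2 lay within the range of the controls.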
